A study of Gallus gallus with 6 samples.

Results

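The 58 genes described here fold, modify and move proteins through the endoplasmic reticulum (ER) and on to the Golgi apparatus. They were listed by symbol, and a gene was measured by the probe sets, the short-oligonucleotide groups of the array, whose annotated symbol is exactly that name. Of the 58 symbols 53 had at least 1 probe set; FKBP10, ATF6, CREB3L1, STT3A and LMAN1 were not matched and were not analysed here. Each gene is given by its brightest probe set over all arrays, and 8122 genes of the whole array were tested in the same way.

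The cells were dermal myofibroblasts, contractile fibroblasts that lay down matrix, grown out of skin pieces from day 10 embryos of brown Leghorn chickens. Inhibitor cultures received TGFBR1 Kinase Inhibitor II, a small molecule against the type I TGF-beta receptor kinase, at 500 nM for 48 h, and DMSO cultures received 0.1% of the solvent alone. The DMSO content of the inhibitor cultures is not in the labels. All cultures grew in medium with 4% fetal bovine and 2% chicken serum. Each group had 3 biological replicates on 1 Affymetrix chicken array each; whether separate embryos gave them is not in the labels, so the p-values cover no more than the spread among these 6 cultures. Values are log2 intensities, and differences are inhibitor minus DMSO. On each array 16356 to 16594 probe sets had a log2 value of at least 4, and the mean correlation of an array was 0.992 to 0.994 with its own group and 0.985 to 0.986 with the other.

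Proteins bound for secretion enter the ER through the SEC61 channel, lose their signal peptide, receive sugar chains and fold with the help of chaperones and disulfide isomerases. COPII coats then carry them to the Golgi, and COPI coats return escaped ER proteins. When folding lags, the sensors IRE1 (encoded by ERN1), PERK (EIF2AK3) and ATF6 raise the transcripts of chaperones and of the degradation machinery, the unfolded protein response. Myofibroblasts secrete large amounts of collagen and other matrix proteins, and so lean heavily on this pathway.

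After TGF-beta receptor inhibition the secretory genes were lower or did not pass the test, and 0 were higher. Of the 53 members 34 fell (64.2%), against 15.1% of all tested genes that fell and 16.5% that rose (limma with replicates as pairs, adjusted p under 0.05; 0 members rose at an unadjusted p under 0.05 either). The median log2 difference of the members was -0.32, against 0.01 for all tested genes, and the member medians of pairs 1, 2 and 3 were -0.31, -0.29 and -0.35. A negative difference stood in 51 of 53 members, and 44 (83.0%) were lower in every pair, against 32.0% of all genes. The inhibitor arrays lay wholly below the DMSO arrays for 34 members (64.2%), against 18.8% of all genes. All 53 had a log2 value of at least 4 on all 6 arrays, so none entered the test through 1 group. The members were chosen with earlier results of these data known, so these shares and those below are no independent check.

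These changes were small for most members. By the brightest probe sets, the largest was that of DNAJB9, 2.46-fold, and it was the sole member that moved more than 2-fold. Dimmer probe sets moved up to 4.24-fold for CREB3L2 and 2.03-fold for SEC61A1. With no replicate block the count was 21 of 53, against 7.49% of all tested genes lower and 8.16% higher, and 0 members rose. It was 15 without replicate 1, 16 without replicate 2 and 30 without replicate 3, beside 6.17%, 7.5% and 15.9% of all genes called lower in the same fits. The genes called in all of these fits were HSPA5, DNAJB9, ERN1, CREB3L2, SEC61A1, SEC61G, SSR1, SSR3, SPCS3, SAR1A, SEC23B, KDELR3 and SURF4, 13 in number. Most members are bright: 47 had a mean log2 value of at least 10, a level chosen after the data were seen, and 29 of those fell (61.7%), against 19.7% of all genes that bright that fell and 17.1% that rose.

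**Figure D1:**
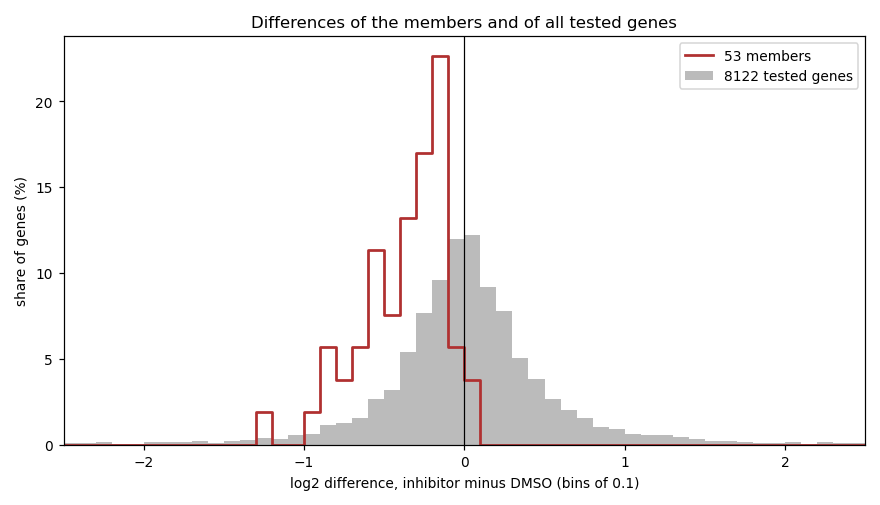
Share of genes (%, vertical axis) by log2 difference, inhibitor minus DMSO, in bins of 0.1 (horizontal axis), for the 53 members (red line) and the 8122 tested genes (grey bars). The members are shifted to the left of 0, with a median of -0.32 against 0.01 for all genes.

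By the brightest probe sets, the ER chaperones were the class with the largest single change. DNAJB9 (ERdj4), a co-chaperone of the HSP70 family member BiP and a widely used readout of IRE1 signalling in mammals, had log2 values of 9.31, 9.04 and 8.60 in inhibitor arrays, against 10.54, 10.22 and 10.08 in DMSO arrays. The groups did not overlap, and the fall was -1.30 ± 0.10 (SE, 3 pairs; adjusted p = 0.00112), which leaves 40.7% of the DMSO level. Both dimmer DNAJB9 probe sets were called too, at -1.05 and -1.19.

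HSPA5 encodes BiP itself, the main HSP70 chaperone of the ER. It read 14.37, 14.59 and 14.32 in inhibitor arrays, against 15.03, 15.00 and 14.83 in DMSO arrays. All inhibitor arrays lay below all DMSO arrays, a fall of -0.53 ± 0.06 to 69.2% of the DMSO level (adjusted p = 0.00357). HSP90B1, the ER member of the HSP90 family, read 13.77, 13.94 and 13.75 in inhibitor arrays, against 14.06, 14.18 and 14.00 in DMSO arrays. That gap was narrow, -0.26 ± 0.05, and alike in the pairs (-0.29, -0.24 and -0.25; adjusted p = 0.0142). A dimmer HSP90B1 probe set had -0.48 and did not pass (adjusted p = 0.11).

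The other HSP70 partners among the members fell as well, DNAJC3 apart. DNAJB11 (ERdj3) and SDF2L1, which bind each other, stood at -0.71 ± 0.11 and -0.57 ± 0.14, and HYOU1, a nucleotide exchange factor of BiP, at -0.27 ± 0.07. DNAJC3, a co-chaperone of BiP, had a difference of -0.24 ± 0.08 and did not pass (adjusted p = 0.0911), although its groups did not overlap. SIL1, another nucleotide exchange factor of BiP, on the wider list described below, was called higher (0.80, adjusted p = 0.0129). In all 6 of 7 chaperones fell, against 15.1% of all tested genes, and 4 did with no replicate block, against 7.49%. Without the block HSP90B1 and HYOU1 lost their calls (adjusted p 0.0832 and 0.122). Those of HSP90B1, HYOU1, DNAJB11 and SDF2L1 were lost without replicate 1 (0.0509 to 0.217), and those of HSP90B1, HYOU1 and SDF2L1 without replicate 2 (0.0532 to 0.117). That of HYOU1 was also lost without replicate 3 (0.0522). These losses are those of the brightest probe sets. A dimmer HYOU1 probe set fell by 0.94 (adjusted p = 0.00867) and passed with no replicate block (0.0465).

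The lectin chaperones calreticulin and calnexin, which hold newly glycosylated proteins, did not pass. CALR read 10.70, 10.88 and 10.77 in inhibitor arrays, against 10.96, 10.93 and 10.87 in DMSO arrays, a difference of -0.13 with a 95% interval of -0.32 to 0.06 (adjusted p = 0.245). CANX, with 11.94, 12.24 and 11.96 in inhibitor arrays, against 11.96, 12.11 and 12.07 in DMSO arrays, had an interval of -0.18 to 0.18. The CANX groups overlapped throughout, and the pairs differed in sign. A dimmer CANX probe set fell by 0.25 (adjusted p = 0.0415), but did not pass with no replicate block (0.274).

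Among the isomerases, which form disulfide bonds or turn proline bonds, 1 of 5 fell (20%), near the 15.1% of all tested genes. It was PDIA3, the disulfide isomerase that works with the lectin chaperones, with 10.40, 10.71 and 9.96 in inhibitor arrays, against 10.95, 10.91 and 10.69 in DMSO arrays. The groups overlapped at inhibitor 2, which stood just above DMSO 3. The difference was -0.50 ± 0.12 (adjusted p = 0.0309), and the call was lost without replicate 1 (0.149), without replicate 3 (0.0517) and with no replicate block (0.156). A dimmer PDIA3 probe set had -0.49 and did not pass (adjusted p = 0.0997). P4HB, a disulfide isomerase that is also the beta subunit of the collagen prolyl hydroxylases, read 14.54, 14.57 and 14.68 in inhibitor arrays, against 14.67, 14.76 and 14.84 in DMSO arrays. It was lower in each pair by 0.13 to 0.18 and missed the threshold (-0.16 ± 0.04, adjusted p = 0.0518). A dimmer P4HB probe set passed at -0.86 ± 0.23 (adjusted p = 0.0440), with pair 3 at -1.59 beside -0.53 and -0.46 in pairs 1 and 2. With no replicate block that probe set did not pass (0.195). PPIB, the prolyl isomerase cyclophilin B, had -0.14 ± 0.05, PDIA6 -0.10 ± 0.14 and PDIA4 -0.07 ± 0.08. PDIA6 was below DMSO in pair 3 (-0.53) and above it in pairs 1 and 2 (0.03 and 0.18).

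**Figure D2:**
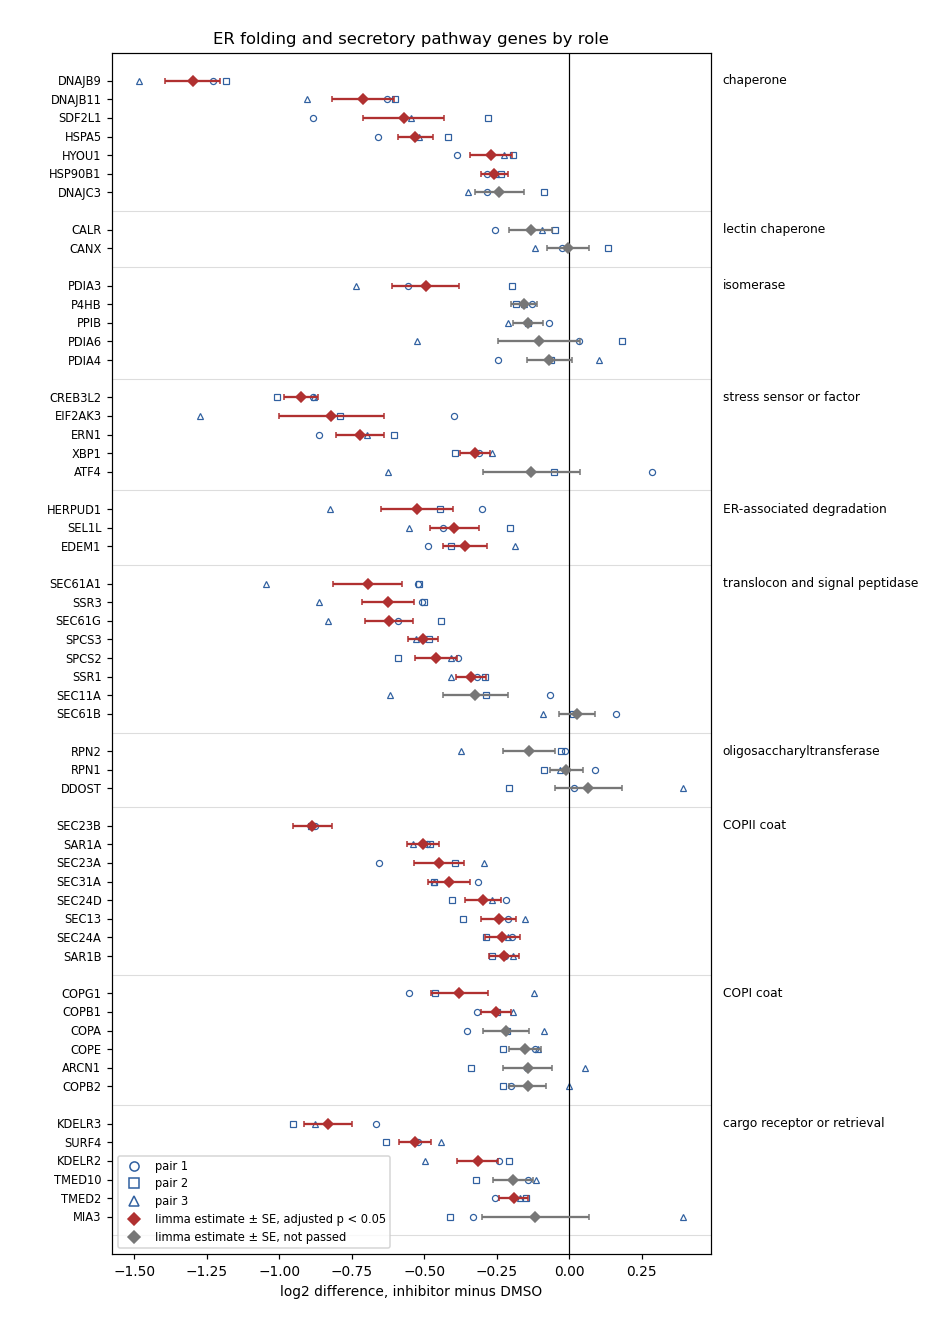
Log2 difference, inhibitor minus DMSO (horizontal axis), of the 53 members grouped by role. Open symbols are the 3 replicate pairs and diamonds the limma estimates with their standard errors, red where the adjusted p was under 0.05. Red diamonds lie left of 0 in 8 of 10 roles, and the lectin chaperones and the oligosaccharyltransferase have none.

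The sensors and transcription factors of the stress response were lower too, ATF4 apart. CREB3L2, an ER-anchored transcription factor known in mouse cartilage for turning on SEC23A and collagen secretion, read 12.12, 12.14 and 12.34 in inhibitor arrays, against 13.01, 13.15 and 13.22 in DMSO arrays. The groups lay well apart, at -0.92 ± 0.06 (adjusted p = 0.000781), 52.7% of the DMSO level. All 5 dimmer probe sets of CREB3L2 were called as well, with falls of 1.12 to 2.08. XBP1, whose message IRE1 splices to give an active factor, read 13.75, 13.32 and 13.68 in inhibitor arrays, against 14.06, 13.72 and 13.95 in DMSO arrays. The groups overlapped because replicate 2 was low in both, yet each pair fell alike (-0.31, -0.39 and -0.27), and the paired estimate was -0.32 ± 0.05 (adjusted p = 0.00977). Probe sets for total XBP1 do not show how much of it was spliced.

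ATF4, the factor made under PERK signalling and amino acid shortage, is controlled largely at translation in mammals. Its transcript read 14.22, 13.69 and 13.34 in inhibitor arrays, against 13.93, 13.74 and 13.96 in DMSO arrays. The 3 pairs pointed different ways (0.28, -0.05 and -0.62), and the interval ran from -0.55 to 0.29 (adjusted p = 0.611). The sensors ERN1 and EIF2AK3 stood at -0.72 ± 0.08 and -0.82 ± 0.18, with groups that did not overlap. Dimmer tested probe sets of ERN1 had -0.45 and -0.21 and did not pass (adjusted p 0.0525 and 0.677). For EIF2AK3 the pairs spread from -0.40 in pair 1 to -1.27 in pair 3. Of 5 tested genes of this class 4 fell, against 15.1% of all tested genes, and 2 with no replicate block, against 7.49%. Without the block XBP1 (adjusted p 0.183) and EIF2AK3 (0.0534) did not pass. XBP1 also lost its call without replicate 1 (0.0564) or 2 (0.0655), and EIF2AK3 without replicate 2 (0.0981).

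All 3 genes of ER-associated degradation, which returns misfolded proteins to the cytosol, fell, against 15.1% of all tested genes. HERPUD1, a membrane scaffold of the degradation complex, read 9.40, 8.87 and 8.82 in inhibitor arrays, against 9.70, 9.32 and 9.64 in DMSO arrays, with inhibitor 1 above DMSO 2. Its difference was -0.52 ± 0.12 (adjusted p = 0.0317). Dimmer HERPUD1 probe sets had -0.27 and -0.22 and did not pass (adjusted p 0.122 and 0.330). EDEM1, which marks misfolded glycoproteins for removal, read 12.42, 12.55 and 12.52 in inhibitor arrays, against 12.91, 12.95 and 12.71 in DMSO arrays. It did not overlap between groups and stood at -0.36 ± 0.08 (adjusted p = 0.0223). SEL1L, the adaptor of the ubiquitin ligase, had -0.40 ± 0.09. Without replicate 1 the 3 calls were lost (adjusted p 0.0743 to 0.124), without replicate 2 those of HERPUD1 and EDEM1 (0.102 and 0.110), and with no replicate block those of HERPUD1 and SEL1L (0.132 and 0.130).

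**Figure D3:**
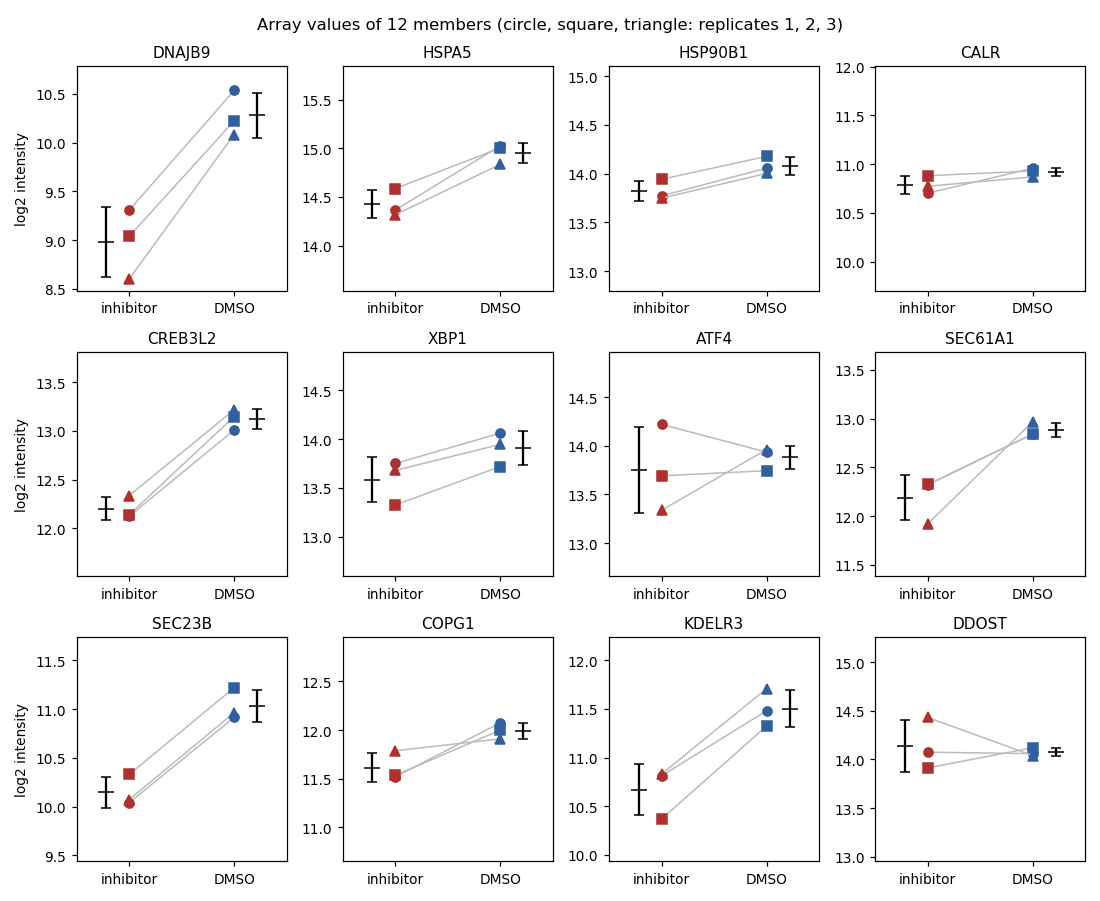
Log2 intensities (vertical axis, the same span of 2.3 units in each panel) of 12 members on inhibitor arrays (left, red) and DMSO arrays (right, blue). Lines join arrays of the same replicate number, and black bars give the group mean ± SD (n = 3). DNAJB9, CREB3L2, SEC23B and KDELR3 show groups far apart, and CALR, ATF4 and DDOST show groups that overlap.

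The translocon and signal peptidase genes, which bring proteins into the ER and trim them, fell in 6 of 8 cases. Over all tested genes 15.1% fell. SEC61A1, the channel-forming subunit, read 12.32, 12.32 and 11.92 in inhibitor arrays, against 12.84, 12.84 and 12.97 in DMSO arrays. No inhibitor array reached the DMSO range, and the fall was -0.70 ± 0.12, 61.7% of the DMSO level (adjusted p = 0.0119). Pair 3 moved most, at -1.05, against -0.52 in pairs 1 and 2. The small channel subunit SEC61G (-0.62 ± 0.08), the TRAP complex subunits SSR3 (-0.62 ± 0.09) and SSR1 (-0.34 ± 0.05), which assist translocation, and the signal peptidase subunits SPCS3 (-0.50 ± 0.05) and SPCS2 (-0.46 ± 0.07) fell as well. All 6 passed with no replicate block too, against 7.49% of all tested genes called lower. Of these calls that of SPCS2 was lost without replicate 2 (adjusted p 0.0569).

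Of the 2 genes of this class that did not pass, SEC11A, a catalytic signal peptidase subunit, stood at -0.32 ± 0.11. A dimmer SEC11A probe set was called, at -0.32 (adjusted p = 0.0338), but did not pass with no replicate block (0.0769). SEC11C, the alternative catalytic subunit on the wider list described below, fell by 0.63 (adjusted p = 0.00557). SEC61B, the remaining channel subunit, read 14.98, 14.96 and 14.84 in inhibitor arrays, against 14.82, 14.94 and 14.93 in DMSO arrays, with an interval of -0.13 to 0.18. Its dimmer tested probe sets differed from each other: 1 fell by 0.36 (adjusted p = 0.00560), and the other had a difference of 0.01 and did not pass (adjusted p = 0.940). For SSR1, 1 dimmer probe set fell by 0.60 while another was higher by 0.40 (adjusted p = 0.0313), the sole member probe set called higher.

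The oligosaccharyltransferase, which attaches sugar chains beside the translocon, had 0 calls among its 3 tested members (limma with or without the replicate block, and 0 at an unadjusted p under 0.05 with the block). Over all tested genes 15.1% fell with the block and 7.49% with none. DDOST read 14.07, 13.91 and 14.43 in inhibitor arrays, against 14.06, 14.12 and 14.04 in DMSO arrays. The inhibitor arrays surrounded the DMSO arrays, and the interval of the difference was -0.22 to 0.36. RPN1 had -0.01, with an interval of -0.15 to 0.13, and RPN2 -0.14, with -0.36 to 0.09. A dimmer RPN2 probe set fell by 0.82 (adjusted p = 0.0168), but did not pass with no replicate block (0.103). Other subunits stand on the wider list described below. Of these OSTC fell by 0.30 (adjusted p = 0.0202). STT3B (-0.22, adjusted p = 0.0593), DAD1 (-0.16, adjusted p = 0.0642) and MAGT1 (0.06, adjusted p = 0.593) did not pass.

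COPII members, whose coat buds vesicles from the ER, fell in 8 of 8 cases, and the inhibitor arrays lay below the DMSO arrays for each. Over all tested genes these shares were 15.1% and 18.8%. The paralogs SEC24B (-0.03, adjusted p = 0.802) and SEC24C (-0.07, adjusted p = 0.457), on the wider list described below, overlapped between groups and did not pass. SEC23B, an inner coat subunit, read 10.04, 10.33 and 10.07 in inhibitor arrays, against 10.92, 11.22 and 10.96 in DMSO arrays. The pairs were almost equal (-0.88, -0.89 and -0.89), and the fall was -0.89 ± 0.07, 54.1% of the DMSO level (adjusted p = 0.00121). A dimmer probe set of SEC23B did not show this fall: its difference was above 0, at 0.10, with an interval of -0.12 to 0.32 (adjusted p = 0.445). SEC23A, its paralog, whose loss impairs collagen export in human craniofacial disease, read 11.98, 12.27 and 12.13 in inhibitor arrays, against 12.63, 12.67 and 12.43 in DMSO arrays. By the brightest probe sets SEC23A fell less, by 0.45 ± 0.09 on the log2 scale (adjusted p = 0.0162). Its dimmer tested probe sets were all called with larger falls, of 0.66, 0.69 and 0.57 (adjusted p 0.00368, 0.0143 and 0.00963). With no replicate block only the last of these passed (0.0402, against 0.0514 and 0.0565). The difference between the paralogs was not tested.

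SEC24D, a cargo-binding subunit, read 12.61, 12.41 and 12.57 in inhibitor arrays, against 12.83, 12.82 and 12.84 in DMSO arrays. The DMSO arrays were almost equal, and the fall was -0.30 ± 0.06 (adjusted p = 0.0223). SEC13, an outer coat subunit, read 13.43, 13.34 and 13.58 in inhibitor arrays, against 13.65, 13.71 and 13.74 in DMSO arrays, which is -0.24 ± 0.06 (adjusted p = 0.0374). SEC31A, the other outer subunit, the GTPases SAR1A and SAR1B, which start the coat, and SEC24A stood at -0.41, -0.50, -0.23 and -0.23. A dimmer SAR1B probe set had 0.01 and did not pass (adjusted p = 0.968). With no replicate block 5 of the 8 passed, against 7.49% of all tested genes called lower, and SAR1B, SEC24A and SEC13 did not (adjusted p 0.0689 to 0.106). The calls of SAR1A and SEC23B held without any pair, whereas the other 6 were lost without replicate 1 (0.0535 to 0.155) and without replicate 2 (0.0653 to 0.202), and that of SEC24A also without replicate 3 (0.0606).

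COPI genes, whose coat carries proteins back from the Golgi, had differences below 0 in 6 of 6 cases and passed in 2 (33.3%). Over all tested genes 15.1% fell. COPG1, the gamma subunit, read 11.52, 11.54 and 11.79 in inhibitor arrays, against 12.07, 11.999 and 11.91 in DMSO arrays. Pair 3 differed little (-0.12) beside pairs 1 and 2 (-0.55 and -0.46), and the estimate was -0.38 ± 0.10 (adjusted p = 0.0410). COPB1 fell by 0.25. COPB2 read 13.79, 13.77 and 13.78 in inhibitor arrays, against 13.99, 14.00 and 13.78 in DMSO arrays, so that replicate 3 showed no gap, and it did not pass (-0.14 ± 0.06, adjusted p = 0.155). COPA, COPE and ARCN1 lay between -0.22 and -0.14. By the brightest probe sets, neither COPI call held with no replicate block (adjusted p 0.0550 and 0.0553), without replicate 1 (0.108 for COPB1 and 0.189 for COPG1) or without replicate 2 (0.101 for COPB1 and 0.169 for COPG1). Dimmer COPG1 probe sets fell by 0.57 and 0.45 (adjusted p 0.00408 and 0.0324), with pair 3 at -0.66 and -0.17. Both also passed with no replicate block (0.00574 and 0.0414). A dimmer COPB1 probe set fell by 0.24 (adjusted p = 0.0394), but did not pass with no replicate block (0.110).

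Among cargo receptors and retrieval proteins 4 of 6 fell, against 15.1% of all tested genes. KDELR3, a receptor that returns proteins with the KDEL tail to the ER, read 10.81, 10.37 and 10.83 in inhibitor arrays, against 11.48, 11.32 and 11.71 in DMSO arrays. The groups did not overlap, and the level was 56.2% of that in DMSO arrays (-0.83 ± 0.08, adjusted p = 0.00230). KDELR2, another receptor of this family, read 14.48, 14.56 and 14.28 in inhibitor arrays, against 14.72, 14.77 and 14.77 in DMSO arrays. It fell by 0.32 ± 0.07 on the log2 scale (adjusted p = 0.0260). The cargo receptor SURF4 fell by 0.53 and the p24 protein TMED2 by 0.19, whereas TMED10, another p24 protein, had -0.19 ± 0.07 and did not pass. MIA3 (TANGO1), which loads bulky collagens into COPII carriers, had pair differences of -0.33, -0.41 and 0.39 and an interval of -0.58 to 0.35. KDELR2 and TMED2 lost their calls without replicate 1 (adjusted p 0.0758 for KDELR2 and 0.170 for TMED2) and without replicate 2 (0.0615 for KDELR2 and 0.126 for TMED2), and TMED2 also without replicate 3 (0.0750) and with no replicate block (0.118).

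By broad class, the median log2 difference was -0.46 for stress sensors and degradation (7 of 8 fell), -0.34 for ER entry (6 of 11), -0.25 for ER folding (7 of 14) and -0.25 for ER-Golgi transport (14 of 20). Over all tested genes 15.1% fell. With no replicate block the counts were 3 of 8, 6 of 11, 4 of 14 and 8 of 20 in the same order, against 7.49%. The medians of the single pairs ran from -0.66 to -0.42 for stress sensors and degradation, from -0.41 to -0.29 for ER entry, from -0.30 to -0.19 for ER folding and from -0.35 to -0.19 for transport. With the median probe set of each gene the ER folding median was -0.49, and that of stress sensors and degradation -0.41, so the order of the classes depends on the probe set taken. For genes with a single dimmer tested probe set, this setting took the lower of the differences and so leans downward. DDOST, for example, was set to -0.34 from probe sets at 0.07 and -0.34. The pair ranges of ER entry, ER folding and transport overlap, and no difference between classes was tested.

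Other probe sets of the same genes mostly pointed the same way. Of 109 tested member probe sets 63 were called lower, 1 higher and 45 not. Over the whole array 4661 of 16567 tested probe sets were called, 2191 of them lower. For 35 members with several tested probe sets, 33 of the 56 dimmer ones had a larger absolute difference than the brightest one, among them HYOU1 (-0.94 against -0.27) and SEC61A1 (-1.02 against -0.70). In 17 members the probe sets disagreed in call. For the called members HSP90B1, PDIA3, ERN1, HERPUD1, SAR1B, SEC23B and KDELR3 no dimmer tested probe set was called. For SEL1L, SSR1, SPCS2, SEC24A and SEC24D only part of the dimmer ones were called lower. The remaining disagreements were in CANX, P4HB, SEC61B, SEC11A and RPN2, whose brightest probe sets were not called. Of the 53 representatives 21 carry the suffix by which Affymetrix marks probe sets shared between transcripts, DNAJB9 and SEC23B included, so a related gene may add to those signals.

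**Figure D4:**
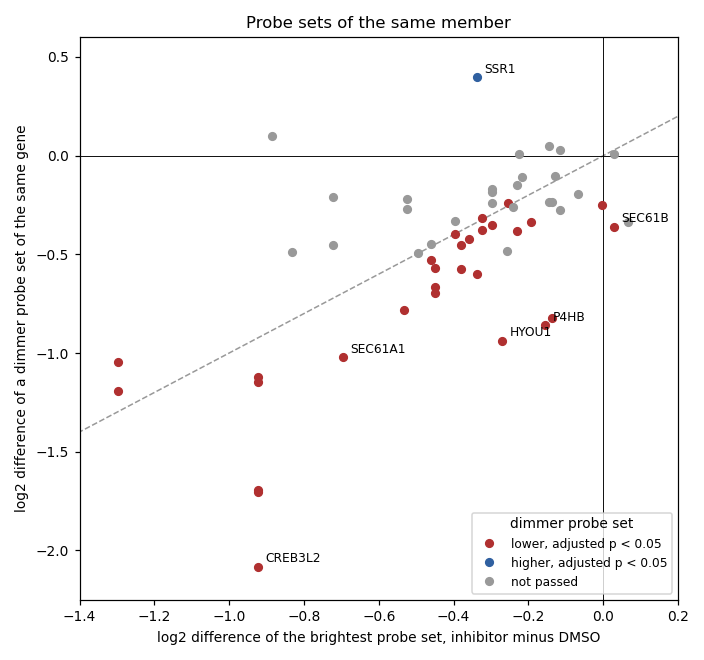
Log2 difference, inhibitor minus DMSO, of each dimmer tested probe set (vertical axis) against that of the brightest probe set of the same member (horizontal axis). The dashed line marks equal differences; points below it moved further down than the brightest probe set. CREB3L2 reaches -2.08, and 1 SSR1 probe set is called higher at 0.40.

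A further 124 genes of the pathway, listed with earlier results of these data known and so no independent check, included 88 tested genes. Of these 34 fell (38.6%) and 1 rose, against 15.1% of all tested genes that fell and 16.5% that rose, and their median was -0.24, against 0.01. The largest falls were in HSPA13, an HSP70-related protein of microsomes (-1.27 ± 0.21), FKBP14, an ER prolyl isomerase (-0.90 ± 0.13), SRP14, a subunit of the signal recognition particle (-0.73 ± 0.08), UBE2J1, the ubiquitin-conjugating enzyme of ER-associated degradation (-0.67 ± 0.08), and ERO1A, the oxidase that recharges disulfide isomerases (-0.65 ± 0.08). SIL1, a nucleotide exchange factor of BiP, was the rise (0.80 ± 0.14, adjusted p = 0.0129), and 0 genes were called higher without replicate 1 or without replicate 2. Entry genes fell in 12 of 18 cases, folding genes in 9 of 23, stress and degradation genes in 6 of 19 and transport genes in 7 of 28. With no replicate block 18 of the 88 fell, against 7.49% of all tested genes, and it was 15 without replicate 1 (6.17% of all genes) and 16 without replicate 2 (7.5%).

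All 12 fibroblast and myofibroblast markers passed the filter, as did 8122 of 13009 genes. Of the 12 markers 2 were called lower (COL1A2 and TWIST2) and 1 higher (PDGFRB), against 15.1% and 16.5% of all tested genes. In DMSO arrays the mean log2 values of the 12 markers ran from 7.43 (ACTA2) to 15.76 (VIM), and that of the blood marker PTPRC was 7.62. Most markers of other skin cells did not pass: of those on the array, 0 of 6 skeletal muscle, 1 of 6 keratinocyte (KRT14), 1 of 6 melanocyte (MITF), 1 of 5 endothelial (PECAM1), 1 of 3 nerve and 3 of 5 blood markers passed, and TP63, TYR, CDH5, SOX10 and SPI1 did not. Of those that passed, MITF was called higher (0.97, adjusted p = 0.00729), PECAM1 lower (-0.82, adjusted p = 0.0290) and the others were not called. With no replicate block the MITF call was lost (0.0619). The summed blood list was 8.56 to 9.07 in inhibitor arrays and 8.04 to 8.36 in DMSO arrays (log2), the melanocyte list, by MITF, 8.97 to 9.36 in inhibitor and 7.77 to 8.71 in DMSO arrays, and the endothelial list, by PECAM1, 5.59 to 5.92 in inhibitor and 6.03 to 6.38 in DMSO arrays; their part in the members' changes was not tested. As a gauge of RNA breakdown, the actin control signal at the 3′ end exceeded that at the 5′ end by 1.57 ± 0.08 in inhibitor and 1.43 ± 0.05 in DMSO arrays (log2, SD, n = 3) without overlap, while the same gauge from the elongation factor and GAPDH controls overlapped; its part was not tested either. In bulk RNA a lower level in each cell and a smaller share of cells that express a gene cannot be told apart.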

How the data were processed

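RNA from 3 inhibitor and 3 DMSO cultures was measured on Affymetrix chicken arrays, from 5 ug of total RNA per the labels' protocols. The authors deposited log2 signal intensities for each probe set on each array. GCRMA and Partek 6.4 appear in the list of tools, per the submitters' processing notes, with no settings; the log2 scale was read from the values. The number of arrays limits the precision.

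After removal of 96 controls from the 38535 probe sets, those at log2 4 or more in 3 or more arrays (16567, 43.1%) were tested with limma 3.58.1 in R 4.3.3 (lmFit, eBayes with trend), two-sided, with the replicate number as a block and with p-values adjusted by Benjamini-Hochberg across those 16567. Probe sets with an adjusted p under 0.05 are called. Standard errors and 95% intervals are those of that fit. The block follows the rule that defined the comparison, while the labels state no pairing. Deviations from group means correlated at 0.63, 0.67 and 0.45 between same-numbered arrays and at -0.45 to -0.14 between others. Deviations cancel out within a group, so positive same-number values pull the others negative, and the negative values are no separate evidence of pairing. Dropping 1 array of a blocked fit removes its pair, so pairs were left out together. The fit was tested on simulated data.

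Gene names came from the platform annotation, which can be old: 27168 probe sets had 1 symbol, 177 had several and were not named, and 11094 had none. Array values are given for members called with at least a 2-fold change and for 12 preset genes, except ATF6 and CREB3L1, which had no probe set. They are also given for the largest called change and the brightest probe set of each role. For the wider pathway, the 5 largest called changes each way are named, and some further subunits of complexes that hold members. Members and lists were chosen with earlier results of these data known. Alternatives were the block, filters, scaling, moderation, array weights, pairs left out and the probe set of a gene. Promoter and protein sequences were not used here.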

Additional observations from a re-analysis of the deposited data

How the results depend on the processing

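The direction of all 34 called members held under every alternative tried, and 0 members were called higher under any of them. For genes with a single dimmer tested probe set, the median probe set setting took the lower of the differences. That setting therefore could not reverse SEC23B or SAR1B, whose dimmer tested probe sets had differences of 0.10 and 0.01. The count of members called lower was 34 with the replicate block, beside 15.1% of all tested genes, and 21 with no replicate block (7.49%). It was 17 without the variance trend (11.6%) and 15 with no filter (6.86%). Without moderation, which leaves 2 residual degrees of freedom, it was 1 (0.0739%), and 24 members had an unadjusted p under 0.05. The member count was 15 to 30 with a replicate pair left out, beside 6.17% to 15.9% of all genes. It was 32 to 36 with a stricter filter, median centring, quantile normalization, array weights or the median probe set of a gene. Leaving the median probe set aside, 16.1% to 17.7% of all genes were called lower in those fits. Over all probe sets, 2191 were called lower and 2470 higher; this was 1078 and 1205 with no replicate block, 999 and 1140 with no filter, 7 and 5 without moderation, and 907 to 2406 and 1007 to 2573 with a pair left out. Wider pathway genes called lower numbered 18 with no replicate block, 15 with no filter, 0 without moderation and 15 to 37 with a pair left out; those called higher numbered 0 with no filter, no moderation or the stricter filter, 2 with quantile normalization and 0 to 2 with a pair left out. The ER folding median was -0.49 with the median probe set of a gene, against -0.25, and the ER entry median ran from -0.45 to -0.30 with a pair left out. Members that did not pass and changed sign were CANX (0.022 with array weights), DDOST (-0.0091 with array weights, -0.34 with the median probe set), SEC61B (-0.0068 with median centring) and RPN1 (0.058 with quantile normalization). With a pair left out, CANX ran from -0.071 to 0.054, PDIA4 from -0.15 to 0.020, PDIA6 from -0.25 to 0.11, ATF4 from -0.34 to 0.12, SEC61B from -0.039 to 0.087, RPN1 from -0.059 to 0.029, DDOST from -0.096 to 0.20 and MIA3 from -0.37 to 0.031. Unless the setting itself removes arrays or probe sets, the cause was not tested.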
